A study of Drosophila melanogaster with 12 samples.

Results

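The mitochondrial ribosomal proteins were taken as all genes whose Ensembl name begins with mRpL (large subunit) or mRpS (small subunit). The deposited tables held 72 such genes among 13771 genes, 46 of the large and 26 of the small subunit by name. The annotation lists mRpL53 as well, which is not analysed here. RNA was measured by poly(A) RNA-seq in whole larvae of the last instar (L3) of Drosophila melanogaster. The groups were clamp null females (yw;Clampnull in the labels, yw, clamp2 in the methods), control females (yw), clamp null males and control males, with 3 libraries per group and 3 larvae per library. All groups carry the yw background, and every allele other than clamp is shared as far as the labels say. Nothing in the labels says that the libraries came from separate cultures, so p-values measure the spread between these libraries. Clamp null libraries are numbered 4 to 6 and control libraries 1 to 3 within each sex.

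Mitochondria keep a small genome of their own, and the proteins it encodes, all of them subunits of the oxidative phosphorylation complexes in animals, are made on a separate ribosome inside the organelle. The RNA of that ribosome is mitochondrial, but its proteins are encoded in the nucleus, made in the cytosol and imported. Many have counterparts in the bacterial ribosome and others are found only in mitochondria. Larvae that lack clamp are known not to pupate, and males of this line die before the end of larval life. CLAMP, the protein missing in the mutant, is a zinc-finger protein that binds GA-rich DNA and is best known for its part in dosage compensation of the male X chromosome. Setting clamp null against control L3 asked which transcripts depend on CLAMP in each sex.

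Some properties of the libraries bear on every value below. Expression was given in TPM, the abundance of a transcript for its length relative to all transcripts. TPM add up to 1000000 in each library and hold no counts of reads. The depth behind the values is thus unknown. Clamp itself had 16.2 to 22.8 TPM in clamp null libraries, against 36.3 to 59.2 TPM in controls. A list of 13 glue and fat body genes of late L3 took 0.439 to 1.86% of all TPM in clamp null libraries and 9.87 to 17.5% in controls. Among 26 testis markers the summed level was 605 TPM in the library labelled clamp null male 6, but 12.1 and 21.2 TPM in those labelled clamp null male 4 and 5, where 16 of the 26 markers were at 0 in each. It was 6.68 to 13.5 TPM in clamp null females, 18.6 to 54.7 TPM in control females and 2845 to 4288 TPM in control males, and none of the markers was at 0 in clamp null male 6 or in any control male. The summed TPM of the members, and calls between genotypes in males that turned on these libraries, are therefore given with and without them. Groups are named by library title, which the sex field of the labels contradicts. Whether the libraries labelled clamp null male 4 and 5 hold male larvae was not tested, and every result for clamp null males carries that limit. In whole larvae, fewer cells of a type and less RNA per cell cannot be told apart. Nor can loss of CLAMP be told from a difference in larval stage, since the late L3 genes differed between genotypes.

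All 72 genes were above 1 TPM in every library, so that none was lost to the filter on low values (a mean of at least 1 TPM, passed by 11145 genes). As a group they were moderately expressed. The median member stood at the 75.0th percentile of the genes tested by mean TPM, and members ranged from the 41.0th to the 91.4th percentile. Their genes were compact. The main transcript had a median length of 738.5 bases and 2 exons, against 1642 bases and 3 exons over all genes tested. By chromosome arm, 21 lay on 3R, 17 on 3L, 12 on 2L, 11 on 2R and 11 on X. Exons of 42 members overlapped another gene, for 41 of them on the opposite strand, and since the sources used here do not say whether strand was used, reads of such partners cannot be told apart with certainty.

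The member with the highest mean level was mRpS14 (FBgn0044030), the mitochondrial counterpart of a bacterial protein of the small-subunit head. It had 70.9, 77.9 and 57.9 TPM in clamp null females, against 43.0, 92.7 and 97.0 TPM in control females. In males it had 67.2, 74.2 and 223 TPM in clamp null libraries 4, 5 and 6, against 64.4, 137 and 130 TPM in control libraries. Its exons overlap Naa15-16 on the opposite strand and CG32533 on the same strand. The groups overlapped in both sexes, and the value of clamp null male 6 stood above all the others. Next came mRpL27, which in bacteria reaches towards the peptidyl transferase centre, with a mean of 86.6 TPM over all libraries, and mRpL28 with 74.8 TPM. The lowest were mRpL32 with 7.84 TPM, mRpL37 with 9.14 TPM and mRpS31 with 10.2 TPM, and none of these 3 passed the test for genotype in either sex. Within clamp null females the mean levels of members spanned 13.4-fold, within control females 13.3-fold.

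Summed over the 72 genes, the mitochondrial ribosomal proteins had 1670, 1868 and 1685 TPM in clamp null females, against 1604, 2158 and 2015 TPM in control females. The clamp null values lay within the range of the controls. In males the sum was 2027, 1986 and 3916 TPM in clamp null libraries 4, 5 and 6, against 2518, 2652 and 2795 TPM in controls. Libraries 4 and 5 lay below every control male library and library 6 above all of them, so that the means of 2643 ± 1103 TPM in clamp null males and 2655 ± 138 TPM in control males (SD, n = 3 each) hid values on both sides. The log2 ratio of the means was -0.15 in females and -0.01 in males. Without clamp null male 6 the male ratio was -0.40, and with that library as the only clamp null male it was 0.56. A sum over members was given no test. The large subunit held 1.93 ± 0.142 times the summed TPM of the small subunit in clamp null females and 1.89 ± 0.0868 times in control females, 1.95 ± 0.106 times in clamp null males and 1.66 ± 0.0883 times in control males (SD, n = 3 each). The plot of summed TPM shows both subunits moving together in clamp null male 6.

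**Figure D1:**
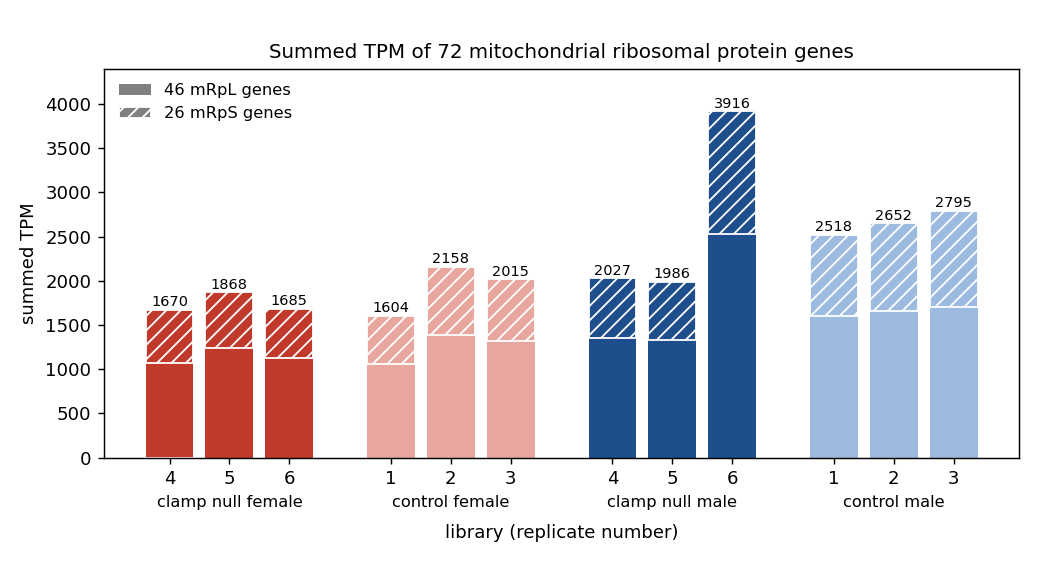
Summed TPM of the 72 mitochondrial ribosomal protein genes in each library (vertical axis, TPM), with the 46 mRpL genes as plain and the 26 mRpS genes as hatched parts of each bar. The bar of clamp null male 6 reaches 3916 TPM, and the other 11 libraries lie between 1604 and 2795 TPM.

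Clamp null male 6 stood apart gene by gene as well. It was the highest of all 12 libraries for 50 of the 72 members, whereas it was the highest for 6.59% of all genes tested. Within clamp null males it was the highest for 69 members, against 43.0% of all genes. The median member was 1.92 times as high in this library as in the mean of clamp null males 4 and 5. Of the members, 58 were at least 1.5-fold higher. This was so for 26.4% of the 9923 tested genes whose mean in clamp null males 4 and 5 was above 0. The same ratio had a median of 0.937 over 81 cytosolic ribosomal protein genes and 1.24 over 61 oxidative phosphorylation genes. Compared with the range of control males, 57 members were above it and 1 below in clamp null male 6, 11 above and 33 below in clamp null male 4, and 13 above and 41 below in clamp null male 5. Of all genes, 19.9% were above and 66.1% below in library 6, 19.8% and 68.0% in library 4, and 25.2% and 60.5% in library 5. Testis markers were also far higher in this library, and their part in the result was not tested.

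**Figure D2:**
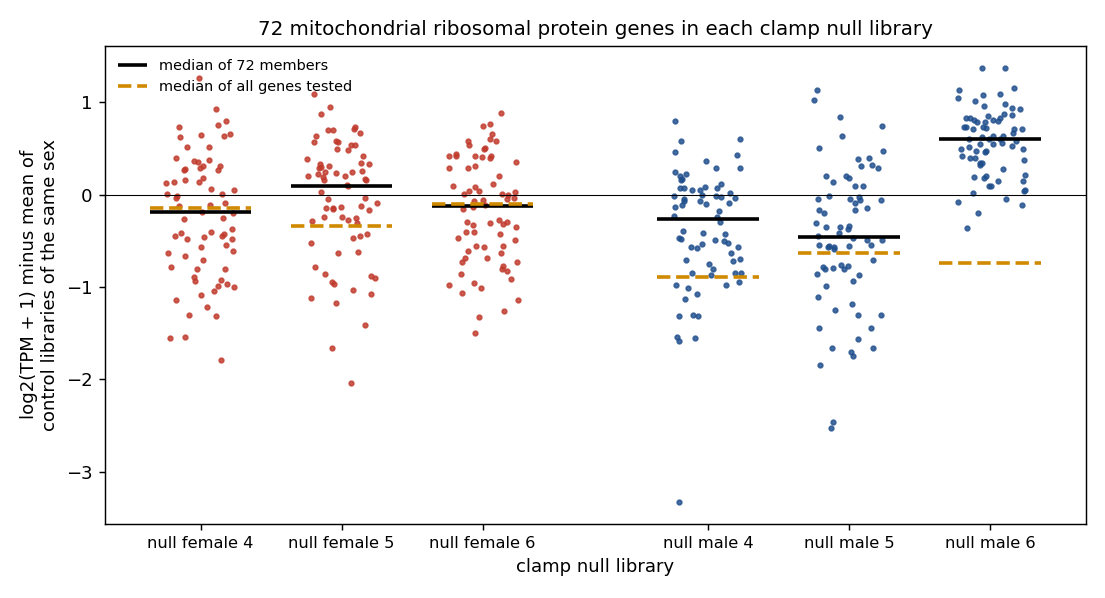
Each point is a member in a clamp null library, as log2(TPM + 1) minus the mean of the control libraries of the same sex (vertical axis, log2). Black lines are medians of the 72 members and dashed lines medians of all genes tested. The member median is 0.60 in clamp null male 6, whereas it is -0.27 and -0.46 in clamp null males 4 and 5 and between -0.19 and 0.10 in clamp null females.

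In females, few mitochondrial ribosomal protein transcripts differed between clamp null and control L3. Of the 72 members, 2 were higher and 3 lower in clamp null females, at a limma adjusted p under 0.05 over all genes tested. Over all 11145 genes, 25.4% were called, 9.8% higher and 15.6% lower. The median log2 fold change was -0.16 for members and -0.20 for all genes. The 67 members that were not called ranged from -1.19 (mRpL20) to 0.66 (mRpS11), and standard errors ran from 0.20 to 0.68 with a median of 0.36. Small changes were thus not detectable. Libraries of both genotypes did not overlap for 9 members above and 14 below the controls. Among all genes, 14.4% did not overlap above and 26.3% below.

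The members that fell in clamp null females were mRpL36, mRpS18A and mRpL49. mRpL36, the counterpart of a small zinc-binding protein of the bacterial large subunit, lies on 3L from 8124584 to 8125132. It had 13.6, 7.83 and 21.0 TPM in clamp null females, against 40.5, 37.7 and 28.9 TPM in control females, a log2 fold change of -1.36 (SE 0.44, limma adjusted p = 0.0382). All clamp null libraries lay below all controls. mRpS18A, a member of the S18 family whose mammalian counterpart is placed in the large subunit despite its name, lies on 3R from 8561917 to 8562593. It had 12.5, 23.3 and 17.7 TPM in clamp null females, against 37.6, 51.3 and 49.8 TPM in control females, a log2 fold change of -1.35 (SE 0.33, limma adjusted p = 0.0114). mRpL49, a protein with no bacterial counterpart, lies on X from 12907105 to 12907942. It had 9.35, 13.0 and 15.2 TPM in clamp null females, against 26.8, 39.3 and 24.2 TPM in control females, a log2 fold change of -1.19 (SE 0.32, limma adjusted p = 0.0178). For these genes too the groups did not overlap.

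The members that rose in clamp null females were mRpS9 and mRpS30. mRpS9 is the counterpart of a bacterial protein whose tail reaches the peptidyl site of the small subunit, and its gene, on 3R from 7889277 to 7902667, overlaps ArgRS-m on the opposite strand. It had 69.1, 44.3 and 48.6 TPM in clamp null females, against 34.5, 28.0 and 23.4 TPM in control females, a log2 fold change of 0.88 (SE 0.26, limma adjusted p = 0.0250). mRpS30 is specific to mitochondria, and its mammalian counterpart too is placed in the large subunit. Its gene lies on X from 15786047 to 15788288. It had 24.2, 20.2 and 18.9 TPM in clamp null females, against 10.9, 13.6 and 12.6 TPM in control females, a log2 fold change of 0.73 (SE 0.23, limma adjusted p = 0.0386). Every clamp null library was above every control for both genes. The next in line was mRpL28, at 78.0, 84.2 and 67.6 TPM in clamp null females against 44.9, 45.4 and 62.8 TPM in control females, with a limma adjusted p of 0.0506.

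The direction among the female calls followed the scale. With TPM divided by a median-of-ratios factor, which moved the median of all genes to -0.02, 6 members were higher and 0 lower (13.6% and 11.2% of all genes), and the falls of mRpL36, mRpS18A and mRpL49 were no longer called (adjusted p = 0.0767, 0.0602 and 0.0673 from limma). With TPM rescaled after leaving out the late L3 genes, which moved the median of all genes to -0.35, 0 members were higher and 6 lower (8.47% and 21.8% of all genes), and the rises of mRpS9 and mRpS30 were no longer called (adjusted p = 0.0692 and 0.0999 from limma). The sign of these 5 fold changes was the same on both scales. Leaving out a single library gave between 1 and 11 members called, 1 without control female 2 and 11 without clamp null male 6, which is no part of this comparison and enters through the shared spread.

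**Figure D3:**
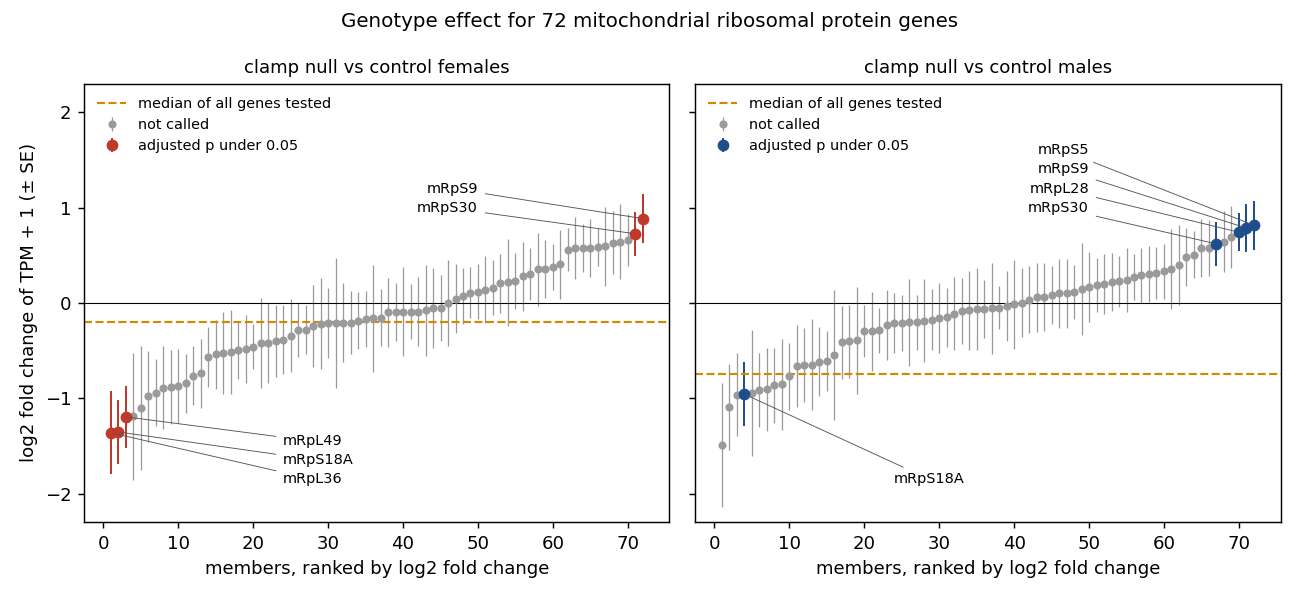
Log2 fold change of TPM + 1 for the 72 members (vertical axis, with SE), ranked within each sex, for clamp null against control females (left) and males (right). Named, coloured points have an adjusted p under 0.05, and dashed lines are the medians of all genes tested, -0.20 in females and -0.75 in males. The members centre near that median in females and above it in males.

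In males, mitochondrial ribosomal protein transcripts fell less than genes in general on the TPM scale, in the median over all libraries. Single clamp null libraries went opposite ways. Of 72 members 4 were higher and 1 lower in clamp null males, whereas 57.1% of all genes were called, 11.3% higher and 45.8% lower. The median log2 fold change was -0.06 for members and -0.75 for all genes, and 62 of the 72 members lay above the median of all genes. The median of the members was thus 0.69 above that of all genes in males and 0.05 above it in females. Against the mean of control males, the member median was -0.27, -0.46 and 0.60 in clamp null males 4, 5 and 6. For all genes it was -0.89, -0.63 and -0.74. Members thus fell in libraries 4 and 5 and rose in library 6. Clamp null libraries lay above all control males for 7 members and below them for 1. Of all genes, 12.5% did not overlap above and 51.1% below.

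The members that rose in clamp null males were mRpS5, mRpS9, mRpL28 and mRpS30. mRpS5, the counterpart of a bacterial protein near the entrance of the mRNA channel, lies on 3L from 24537236 to 24543534. It had 23.7, 24.5 and 23.9 TPM in clamp null males, against 11.1, 10.5 and 19.8 TPM in control males, a log2 fold change of 0.81 (SE 0.25, limma adjusted p = 0.0169). mRpL28, a protein of the large subunit with a bacterial counterpart, lies on 2L from 4973976 to 4975316 and overlaps Gmd on the opposite strand. It had 97.7, 108 and 118 TPM in clamp null males, against 54.9, 69.8 and 67.6 TPM in control males, a log2 fold change of 0.74 (SE 0.20, limma adjusted p = 0.00810). The 3 clamp null libraries were close to each other for both genes and lay above all controls, although clamp null male 6 stood apart for most members.

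mRpS9 had 48.5, 79.9 and 62.6 TPM in clamp null males, against 41.9, 35.0 and 31.2 TPM in control males (log2 fold change 0.79, SE 0.26, limma adjusted p = 0.0205). mRpS30 had 22.5, 18.1 and 30.0 TPM in clamp null males, against 15.8, 14.0 and 14.3 TPM in control males (log2 fold change 0.62, SE 0.23, limma adjusted p = 0.0381). These genes were thus called higher in clamp null L3 of both sexes, with no overlap between genotypes in either. mRpS18A was the only member lower in clamp null males, with 31.9, 17.7 and 45.2 TPM, against 47.4, 60.1 and 69.4 TPM in control males (log2 fold change -0.96, SE 0.33, limma adjusted p = 0.0274), and it was called lower in both sexes. No other member was called in both sexes. Of the 72 members 65 were called in neither, and the log2 fold change had opposite signs in the sexes for 25. Of all 11145 genes, 4214 were called in neither, 790 were higher in both sexes and 1451 lower in both. Signs were opposite for 2183 of them.

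**Figure D4:**
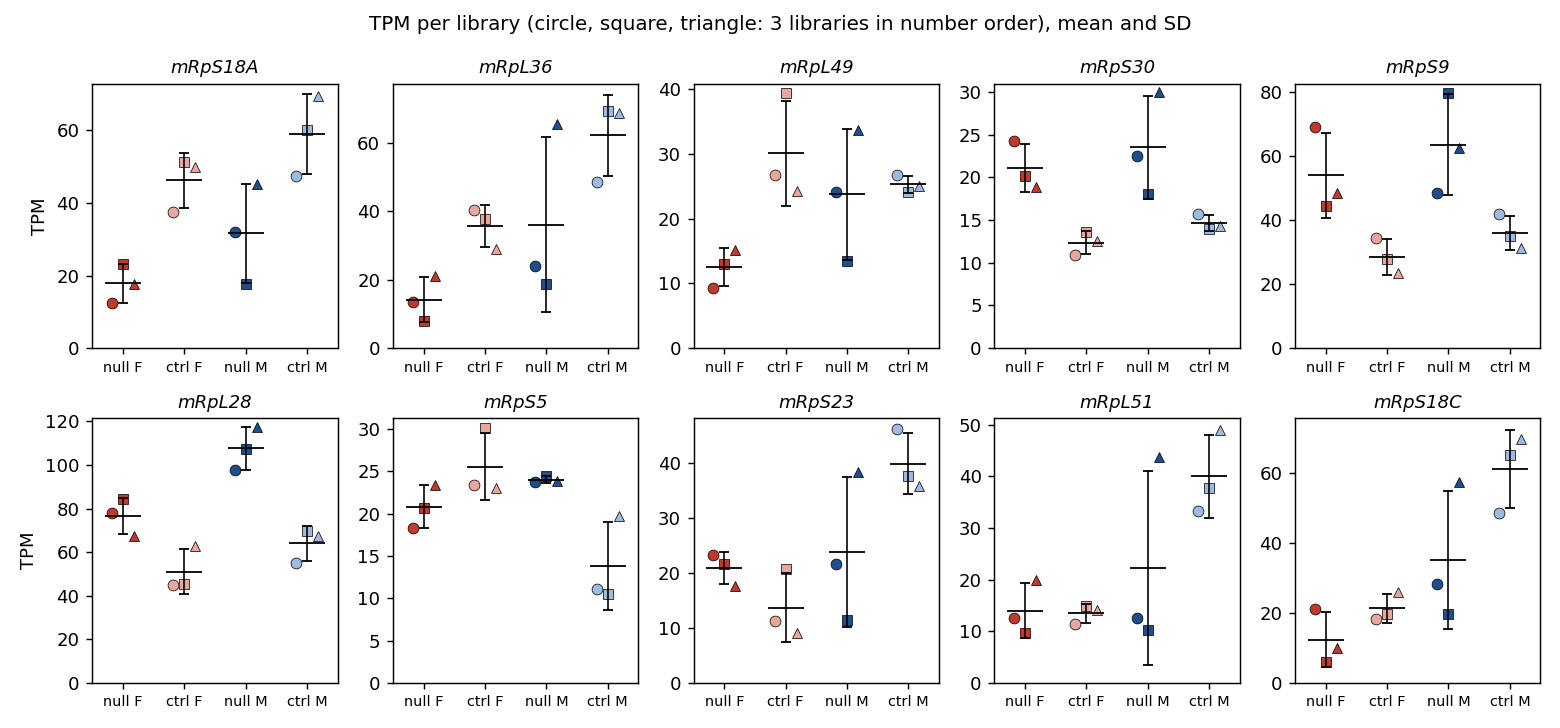
TPM per library (vertical axes) of 10 members called in a comparison of genotypes or of control sexes, with the mean and SD of each group; circle, square and triangle are the 3 libraries of a group in number order. mRpS9 and mRpS30 lie above the controls in clamp null L3 of both sexes and mRpS18A below them, and for mRpL51, mRpS18C and mRpS23 clamp null male 6 (triangle) lies above the other clamp null males.

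The calls in males turned on the library that stood apart. Without clamp null male 6, 18 members were lower and 3 higher, at 45.4% of all genes lower and 12.2% higher. The 18 included mRpS33 (log2 fold change -2.29), mRpL51 (-1.71), mRpL36 (-1.49), mRpS18C (-1.32), mRpS23 (-1.28) and mRpS18A (-1.26), and the 3 were mRpL28, mRpS5 and mRpS9. With clamp null male 6 as the only clamp null male, which is then assumed to vary like the other libraries, 0 members were lower and 9 higher, at 32.7% of all genes lower and 7.97% higher. These 9 were mRpL37, mRpL55, mRpL10, mRpS25, mRpL54, mRpS30, mRpL13, mRpL28 and mRpL12. The log2 fold change had a different sign in the 2 fits for 48 of the 72 members. mRpS25 was one of them. It was called lower without clamp null male 6, at -0.83, and was at 1.04 with that library alone. mRpL28 was called in both, at 0.68 without clamp null male 6 (limma adjusted p = 0.0207) and 0.87 with it alone (limma adjusted p = 0.0329), and its rise in males was called under each of the 20 alternatives run. The members of these lists were looked up after the counts had been seen. Scale mattered too. With the median-of-ratios factor, which moved the median of all genes to -0.23, 15 members were higher and 0 lower, at 18.4% of all genes higher and 28.4% lower. Rescaled without late L3 genes, which moved it to -0.94, 1 was higher and 9 lower, at 9.42% of all genes higher and 52.8% lower. As in females, the rises of mRpS9 and mRpS30 were then no longer called (adjusted p = 0.0747 and 0.130 from limma). Nor was that of mRpS5 (limma adjusted p = 0.0536). The fall of mRpS18A was not called with the median-of-ratios factor in either sex (-0.38 in males, limma adjusted p = 0.453).

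Whether genotype acted differently in males and females was tested as an interaction in the same limma fit, which called 0 of the 72 members, against 14.7% of all genes (0.493% higher, 14.2% lower). At an unadjusted p under 0.05 there were 3 members, against 2824 of all 11145 genes, and limma without the trend also called 0 members. These 3 were mRpS5 with an interaction of 1.09 (SE 0.36, limma adjusted p = 0.0662), mRpS23 with -1.51 (SE 0.55, limma adjusted p = 0.102) and mRpL49 with 1.02 (SE 0.46, limma adjusted p = 0.184). The fall of mRpL49 and mRpL36 in females and the rise of mRpS5 and mRpL28 in males were thus not shown to differ between the sexes.

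Among control larvae, most mitochondrial ribosomal protein transcripts had higher TPM in males, as did genes in general. The median difference of males minus females was 0.39 on the log2 scale for members and 0.34 for all genes, and it was below 0 for 6 of the 72 members. Of the members 4 were called higher and 1 lower in control males, against 23.2% and 1.56% of all genes. Control male libraries lay above all control females for 24 members and below them for 1. Among all genes 37.9% and 6.09% did so.

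The largest sex differences were those of mRpS23, mRpL51 and mRpS18C. mRpS23, found only in mitochondria, lies on 2L from 13834250 to 13835072 and overlaps Polr2C on the opposite strand. It had 46.3, 37.7 and 35.8 TPM in control males, against 11.3, 20.8 and 9.10 TPM in control females (log2 difference 1.55, SE 0.39, limma adjusted p = 0.0106). mRpL51, likewise without a bacterial counterpart, lies on 2L from 8516753 to 8517380 and overlaps PIG-U on the opposite strand. It had 33.3, 37.8 and 49.0 TPM in control males, against 11.4, 14.9 and 14.2 TPM in control females (log2 difference 1.49, SE 0.45, limma adjusted p = 0.0285). mRpS18C, another of the S18 family, lies on 3R from 30423974 to 30424556 and overlaps CG15536 on the opposite strand. It had 48.7, 65.3 and 69.7 TPM in control males, against 18.3, 19.6 and 25.9 TPM in control females (log2 difference 1.48, SE 0.43, limma adjusted p = 0.0244). The sexes did not overlap for any of these genes.

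In clamp null larvae the same genes divided by library. mRpL51 had 12.5, 10.3 and 43.8 TPM in clamp null males 4, 5 and 6, against 12.6, 9.57 and 19.9 TPM in clamp null females. mRpS18C had 28.2, 19.7 and 57.4 TPM in those males, against 21.1, 5.95 and 9.97 TPM in clamp null females. mRpS23 had 21.6, 11.5 and 38.5 TPM in clamp null males, against 23.3, 21.7 and 17.7 TPM in clamp null females. Clamp null male 6 was within the range of control males for these genes, whereas libraries 4 and 5 were below it. Testis markers were highest in control males and in clamp null male 6 too, and their part in these levels was not tested.

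mRpL43, specific to mitochondria and overlapping sigmar on the opposite strand, was the fourth member higher in control males and falls outside the rule for naming. It had 50.4, 51.5 and 40.2 TPM in control males, against 22.0, 23.6 and 23.1 TPM in control females (log2 difference 1.01, SE 0.23, limma adjusted p = 0.00463). mRpS5 went the other way, with 11.1, 10.5 and 19.8 TPM in control males against 23.4, 30.2 and 23.1 TPM in control females (log2 difference -0.89, SE 0.25, limma adjusted p = 0.0216). With the median-of-ratios factor, which moved the median of all genes to 0.05, mRpS5 was the only member called. None of the 11 X-linked members was called between control sexes by limma, with 0 also at an unadjusted p under 0.05, and their median difference was 0.28, against 0.39 for the 61 autosomal members. Of the 1756 X-linked genes tested, 18.5% were called higher and 1.59% lower with a median of 0.15, against a median of 0.37 over autosomal genes. An unadjusted p under 0.05 was found for 472 of these X-linked genes.

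Between clamp null males and clamp null females 0 members were called by limma, and 0.0179% of all genes were. At an unadjusted p under 0.05 there were 22 members, against 622 of all 11145 genes, and limma without the trend called 0 members. The median difference was 0.50 for members and 0.05 for all genes. Clamp null males lay above all clamp null females for 10 members and below them for 0, and among all genes 4.61% lay above and 2.27% below. With clamp null male 6 as the only clamp null male, a single library assumed to vary like the others, 32 members were higher and 0 lower, at 12.2% of all genes higher and 3.33% lower.

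Other genes of mitochondrial translation were examined as lists. Of 11 partners of the mitochondrial ribosome (initiation, elongation and release factors, and the small-subunit proteins tko and bonsai, which do not carry an mRp name), 0 were called in clamp null females by limma, with 1 at an unadjusted p under 0.05, and 1 was lower in clamp null males. Of all genes, 15.6% were called lower in clamp null females and 45.8% in clamp null males. In females 4216 of 11145 genes had an unadjusted p under 0.05. The partner called was mEFTs, the exchange factor that recycles the elongation factor Tu. It had 31.5, 27.0 and 45.9 TPM in clamp null males, against 103, 95.2 and 114 TPM in control males (log2 fold change -1.58, SE 0.26, limma adjusted p = 0.000343). In females it had 26.3, 24.7 and 30.0 TPM in clamp null libraries, against 21.9, 39.4 and 24.9 TPM in controls. tko had 35.4, 30.4 and 64.9 TPM in clamp null males, against 34.2, 52.3 and 43.9 TPM in control males, with clamp null male 6 again the highest. Control males had far more mEFTs than all the other libraries, clamp null male 6 included, and its fall in males was called without that library (-1.79) and with it as the only clamp null male (-1.16). The other calls among the partners turned on the library. mIF3, an initiation factor, was called lower without clamp null male 6, and bonsai was called higher with it alone.

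Of 15 mitochondrial tRNA synthetases, which charge the tRNAs used on this ribosome, 0 were called in clamp null females by limma, with 0 at an unadjusted p under 0.05, and 3 were lower in clamp null males. TrpRS-m had 2.51, 2.52 and 13.7 TPM in clamp null males, against 41.1, 41.1 and 44.6 TPM in control males (log2 fold change -2.93, SE 0.55, limma adjusted p = 0.000775). ValRS-m and CysRS-m were the others, at -2.09 and -1.19. Of all genes, 45.8% were called lower in clamp null males and 15.6% in clamp null females. An unadjusted p under 0.05 was found for 4216 of 11145 genes in females. Without clamp null male 6 these and 2 more synthetases were called lower, and with it as the only clamp null male TrpRS-m alone was. In control larvae these 3 were also the synthetases called higher in males, by 3.19, 1.79 and 1.97 on the log2 scale for TrpRS-m, ValRS-m and CysRS-m. Of all genes, 23.2% were called higher in control males.

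Of 10 genes for the upkeep and transcription of mitochondrial DNA, mtSSB, which binds single-stranded mitochondrial DNA, fell by 1.11 on the log2 scale and bsf, an RNA-binding protein of mitochondria, rose by 0.97 in clamp null females (limma adjusted p = 0.0348 and 0.0210). In clamp null males PolG1, the catalytic subunit of the mitochondrial DNA polymerase, fell by 1.18 (limma adjusted p = 0.0210), and was not called with clamp null male 6 as the only clamp null male. Of 9 regulators of growth and of mitochondrial genes, ewg, the fly relative of mammalian NRF-1, was lower in clamp null L3 of both sexes, by 1.06 in females and 1.05 in males on the log2 scale (limma adjusted p = 0.0163 and 0.00697). M1BP, which binds a core promoter motif common in ribosomal protein genes, was lower in both as well. Ets97D, the relative of a subunit of mammalian NRF-2, and srl, the relative of PGC-1, were lower in clamp null males. In all, 2 of the 9 regulators were called lower in females and 4 in males. Over all genes, 9.8% were called higher and 15.6% lower in females, and 11.3% and 45.8% in males. The median log2 fold change in males was -0.69 for the regulators and -0.75 for all genes. Of these regulators ewg and Ets97D were called lower in males both without clamp null male 6 and with it alone.

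The other gene sets of translation and respiration took different values from the mitochondrial ribosomal proteins on the same scale. Of 62 nuclear oxidative phosphorylation subunits, 33 were higher and 0 lower in clamp null females and 51 higher and 1 lower in clamp null males, with median log2 fold changes of 0.80 and 0.99. Without clamp null male 6, 42 were higher and 1 lower in males, and with it alone 49 and 1. Of 85 cytosolic ribosomal protein genes, 16 were higher and 1 lower in clamp null females and 9 higher and 5 lower in clamp null males, with medians of 0.03 and 0.11. In males 15 were higher and 5 lower without clamp null male 6, and 1 and 1 with it alone. Of the 13 mitochondrially encoded genes in the files, whose messages are read by the mitochondrial ribosome, 2 were lower in clamp null females, and 4 were higher in clamp null males with a median of 0.48, 2 without clamp null male 6 and 0 with it alone. These genes were already lower in control males than in control females, 7 of 13 being called, with a median of -1.34. The libraries were selected for poly(A), which limits what their levels can show. No test was made between these lists. Over all genes, 9.8% were called higher and 15.6% lower in clamp null females, and 11.3% and 45.8% in clamp null males. Between control sexes, 1.56% of all genes were called lower in males.

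**Figure D5:**
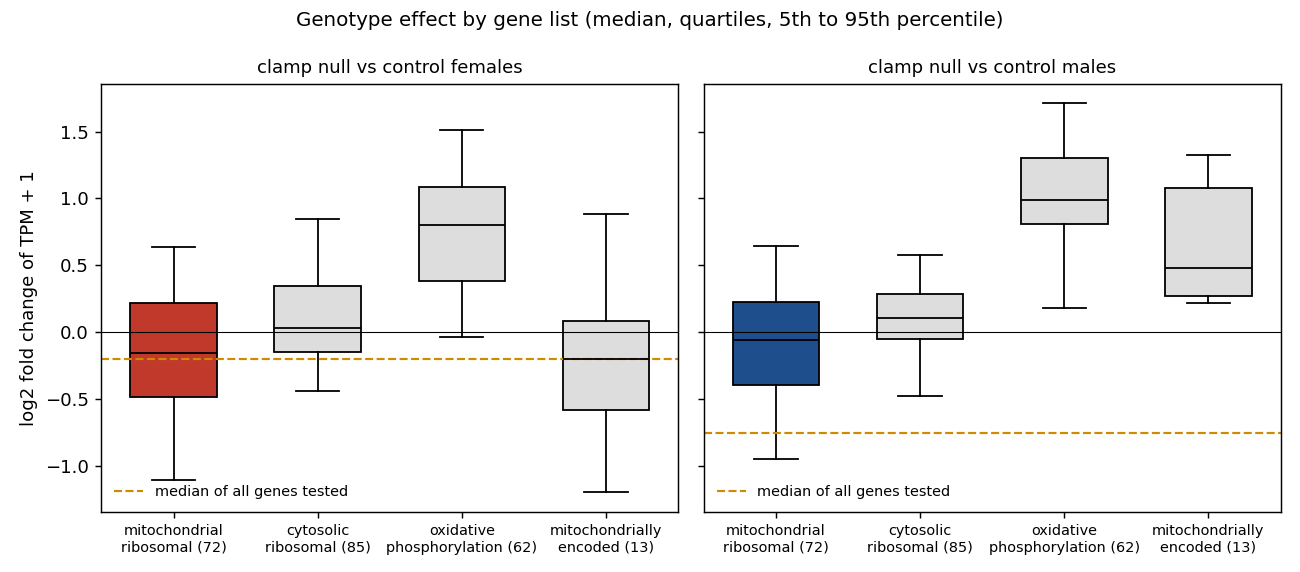
Log2 fold changes of TPM + 1 (vertical axis) for clamp null against control L3, females left and males right. Boxes show medians and quartiles and whiskers the 5th to 95th percentiles over the genes of each list, with the number of genes in parentheses. The median of the oxidative phosphorylation subunits is 0.80 in females and 0.99 in males, against -0.16 and -0.06 for the mitochondrial ribosomal proteins, and the dashed line is the median of all genes tested.

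Since the study asked about splicing, the share of each transcript in its gene's TPM was tested too. Most members gave no such test, as 54 of the 72 have a single annotated transcript. The 20 testable transcripts came from 10 members, and 0 were called in either sex by limma, against 0.505% of all 11279 transcripts tested in females and 2.43% in males. At an unadjusted p under 0.05 there were 4 in females and 0 in males, against 10.6% and 15.4% of all transcripts tested. Those 4 are the transcript pairs of mRpL17 and mRpL27, and their values were looked at after the test. For mRpL17 the shorter transcript FBtr0072503 held a share of 0.927, 1 and 1 in clamp null females, against 0, 0.666 and 0.562 in control females (limma adjusted p = 0.172). For mRpL27 the transcript FBtr0077451 held 0.764, 0.735 and 0 in clamp null females, against 1, 0.949 and 0.919 in control females (limma adjusted p = 0.370). The difference for mRpL27 came largely from clamp null female 6, in which the other transcript FBtr0345633 held 0.987.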

How the data were processed

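Libraries of whole L3 were assigned to groups from their titles. The labels also hold a sex field, which gives a single sex per genotype. It contradicts the titles and was set aside. Before deposition the authors trimmed the reads and quantified transcripts. The sample records name FastQC, Trim Galore, cutadapt and Bowtie2, with genome dm6. Salmon is named for the quantification in the methods of the paper. The deposited values are TPM of each transcript, summing to 1000000 per library without a filter. Since TPM hold no counts, library depth is unknown and counting intervals were not given. Versions of these tools are not given in the sources used here.

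TPM were summed per gene after matching 29926 of the 29936 transcripts to Ensembl release 115 (BDGP6.54). Coordinates are from that annotation. Genes averaging 1 TPM or more were tested on log2(TPM + 1) with limma 3.58.1 in R 4.3.3, with a trend, over 4 groups of 3 libraries (8 residual degrees of freedom), so fold changes of low genes are understated. Adjustment over all genes followed Benjamini and Hochberg, and an adjusted p under 0.05 was a call. Transcript shares were tested without a trend, for genes of 2 or more transcripts and mean shares from 0.05 to 0.95. Both tests were checked on simulated data. Figures were drawn with matplotlib 3.10.9.

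The members and lists were chosen with earlier results of these data known. Named members were, per sex, up to 5 called rises and falls between genotypes, up to 3 between sexes, every member called in the interaction, and the 3 highest and lowest in mean TPM. Alternatives were the pseudocount, the filter, the scale, the trend, the libraries in the fit, each library left out and a block for the library number. Leaving out clamp null males 4 and 5 for the summed TPM, and these or clamp null male 6 for the other lists, was added after the data were seen. Sequences were not used here.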

Additional observations from a re-analysis of the deposited data

Results flagged for a closer look

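No mitochondrial ribosomal protein gene had an effect of genotype that differed between the sexes by the interaction test. Among the translation partners, the tRNA synthetases, the genes of mitochondrial DNA, the regulators and the mitochondrially encoded genes, 3 genes did. Of the other lists, 1 cytosolic ribosomal protein gene, 2 oxidative phosphorylation subunits and 16 of 24 testis markers were called in the interaction too, against 14.7% of all genes. For mEFTs the effect in males minus that in females was -1.53 on the log2 scale (SE 0.37, limma adjusted p = 0.0137). For CysRS-m it was -1.46 (SE 0.44, limma adjusted p = 0.0433), with 6.15, 6.53 and 10.1 TPM in clamp null males, against 19.4, 14.9 and 21.1 TPM in control males, and 5.91, 3.36 and 5.85 TPM in clamp null females, against 5.40, 3.93 and 2.78 TPM in control females. For mt:Cyt-b, encoded in mitochondrial DNA, it was 1.38 (SE 0.43, limma adjusted p = 0.0496), with 575, 691 and 491 TPM in clamp null males, against 213, 163 and 351 TPM in control males, and 543, 627 and 635 TPM in clamp null females, against 519, 926 and 499 TPM in control females. All clamp null male libraries lay outside the range of control males for these genes. They were below it for mEFTs and CysRS-m and above it for mt:Cyt-b. Of all genes, 51.1% lay below all control males in this way and 12.5% above. The interactions of these genes are given for all libraries together only. Groups of 3 libraries were too small for a test of single outlying values.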

How the results depend on the processing

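None of 44 results for 11 named members changed sign while called in 891 repeats under the alternatives. This covers the named members only. mRpS25, which is not one of them, went from -0.83 in males without clamp null male 6 to 1.04 with it as the only clamp null male. Of these, 794 stayed on their side of the threshold, 73 lost a call and 24 gained one. Counts of members called were less stable. They are given here without the share of all genes called in the same fit. For genotype within a sex, the shares under both rescalings stand above, as does the male share without clamp null male 6. Elsewhere a shift particular to the members cannot be told from one that all genes shared. In females (5 called) the count was 12 without clamp null males 4 and 5 and ranged from 1 to 11 with each library left out, being 2 without clamp null female 4 and 3 without clamp null female 5, control female 1 or 3 or any control male. In males (5 called) it was 15 with the median-of-ratios factor, 10 rescaled without late L3 genes, 2 with the 6 male libraries alone and 9 without clamp null males 4 and 5, and ranged from 2 to 21 with a library left out, being 2 without control male 2 or 3 and 3 without control male 1 or clamp null male 5. Between control sexes (5 called) it was 1, 15 with the 6 control libraries alone and 14 without clamp null males 4 and 5, and ranged from 2 to 10, being 10 without clamp null male 6, 2 without control male 2 and 3 without control male 1 or 3 or control female 1 or 2. Between clamp null sexes (0 called) it was 32 without clamp null males 4 and 5 and stayed at 0 with each single library left out. For the interaction (0 called) it was 1 with the median-of-ratios factor, 5 without clamp null males 4 and 5, and ranged from 0 to 3, being 3 without clamp null male 6 and 1 without control male 3, control female 2 or clamp null male 5. The log2 ratio of summed TPM was 0.14 in females and 0.59 in males with the median-of-ratios factor, -0.34 in females without late L3 genes, and 0.56 in males without clamp null males 4 and 5. With a library left out it ranged from -0.26 to -0.06 in females and from -0.40 to 0.16 in males. The count of member transcripts with a changed share stayed at 0 in both sexes under the alternatives run for it. Beyond the libraries left out, the cause of these shifts was not tested. Unknown depth limits what can be said of low TPM.

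Library numbers are shared between the sexes of a genotype. Deviations of same-numbered libraries from their group means correlated at 0.26, -0.06 and 0.15 in controls and at -0.02, -0.05 and -0.08 in clamp null larvae, so the numbers were not taken to pair libraries. With a replicate block, 4 members were called between control sexes (4 higher, mRpS5 being lost at a limma adjusted p of 0.0634), 0 between clamp null sexes and 0 in the interaction. No paired analysis was possible for the genotypes because clamp null and control libraries share no number.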
